A study of Mus musculus with 3 samples.

Results

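Glycolysis splits glucose into pyruvate, and 34 genes of this pathway and of the transcriptional response to low oxygen were followed across the cell classes of the mouse intervertebral disc. The members were taken by gene symbol, as 34 of the 30406 genes shared by the 3 libraries: 2 glucose transporters, 2 hexokinases, 7 further enzymes of upper glycolysis, 5 of lower glycolysis, 4 lactate genes, 3 regulators of the pathway, 3 genes of the oxygen sensor and 8 targets of the hypoxia response. Each symbol matched 1 gene, except Aldoa, which matched a second gene ID with 23 UMIs against 108556 for the one used. The cells came from discs of mice at postnatal day 30 with the genotype shh-cre:R26R-tdTomato, in which Cre expressed from the Shh locus switches on the fluorescent protein tdTomato in cells that express Shh and in their descendants, and sorting enriched the suspension for tdTomato+ cells. No treatment was given and there is 1 group, made up of 3 libraries of the 10x Genomics 3' assay, each from a pool of litter-matched animals and, per the labels, from its own replicate sequencing batch. The number of animals in a pool is not given in the sources used here. With the library as a term of the fit, p-values measure how differences between classes vary over the 3 pools. That spread is estimated from all classes of the fit together, and it is not the spread between animals. All differences described here are between cell classes of the same libraries.

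The nucleus pulposus is the gel-like core of the disc, it has no blood vessels of its own, and its cells are known for living at low oxygen on glycolysis. When oxygen is low, the prolyl hydroxylases that mark the HIF alpha proteins for breakdown slow down, and HIF then binds short elements of DNA near its target genes, among them most genes of glycolysis. Lactate made from pyruvate leaves the cell through monocarboxylate carriers, and the collagen prolyl hydroxylases among the HIF targets modify collagen chains before secretion.

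The core of the hypoxia response element was looked for in the RefSeq promoters of the members (GRCm38.p6, 250 bases before to 50 after a start), to show what the genes share in sequence. Searched were ACGTG and GCGTG on both strands, where the palindrome CACGTG counts as 2 sites. The table held 44 promoters of 30 of the 34 genes, with none for Slc2a3, Bnip3l, Epas1 and Ndrg1. At least 1 site stood in 36 of the 44 (81.8%), against 43.8% of all 32851 promoters of that table, and at least 2 sites in 61.4% against 20.6%. The median GC content was 62.8% in the members' promoters and 52.7% in all, and its part in the share of sites was not tested. A match says only that the letters are there. Below are 4 of these promoters, of genes whose levels differed between the cell classes in different ways, in lower case with the sites in capitals. They are those of Slc2a1 (chr4:119108495-119108794, + strand), Ldha (chr7:46845554-46845853, + strand), Bnip3 (chr7:138909457-138909756, - strand) and P4ha2 (chr11:54100674-54100973, + strand).
Slc2a1: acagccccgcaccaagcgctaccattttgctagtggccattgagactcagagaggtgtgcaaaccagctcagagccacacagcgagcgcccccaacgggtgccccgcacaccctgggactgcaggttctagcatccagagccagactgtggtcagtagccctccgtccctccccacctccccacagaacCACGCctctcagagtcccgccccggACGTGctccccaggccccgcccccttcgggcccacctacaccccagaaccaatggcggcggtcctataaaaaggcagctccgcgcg
Ldha: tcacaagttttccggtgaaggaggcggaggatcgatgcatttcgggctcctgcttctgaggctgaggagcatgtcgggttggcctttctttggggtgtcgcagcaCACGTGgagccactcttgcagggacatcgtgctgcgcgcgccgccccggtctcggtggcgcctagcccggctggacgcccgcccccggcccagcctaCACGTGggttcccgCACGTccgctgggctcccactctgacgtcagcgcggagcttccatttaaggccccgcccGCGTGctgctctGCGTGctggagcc
Bnip3: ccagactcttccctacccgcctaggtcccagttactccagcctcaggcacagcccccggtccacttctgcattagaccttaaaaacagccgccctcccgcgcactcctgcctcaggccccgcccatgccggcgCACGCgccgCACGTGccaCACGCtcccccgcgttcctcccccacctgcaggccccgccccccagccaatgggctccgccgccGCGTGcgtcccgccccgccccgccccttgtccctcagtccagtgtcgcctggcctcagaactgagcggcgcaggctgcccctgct
P4ha2: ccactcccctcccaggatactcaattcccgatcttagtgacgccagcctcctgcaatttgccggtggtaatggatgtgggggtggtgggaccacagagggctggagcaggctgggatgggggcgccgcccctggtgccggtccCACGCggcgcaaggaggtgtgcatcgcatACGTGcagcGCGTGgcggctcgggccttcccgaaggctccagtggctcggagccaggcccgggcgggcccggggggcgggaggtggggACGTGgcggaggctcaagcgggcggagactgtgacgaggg
In this window Slc2a1 had 2 sites, Ldha 7, Bnip3 5 and P4ha2 4. Slc2a1, the basal glucose transporter, and Bnip3, a mitophagy receptor, were highest in nucleus pulposus cells, and P4ha2, a collagen hydroxylase, was highest in chondrocytes, so the same letters stood before genes with unlike levels. The promoters of Gpi1 and Tpi1 in the table held no site in this window.

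Cells were assigned to classes by fixed markers, and the levels below are CPM, the UMIs (unique molecular identifiers, 1 per captured transcript) of a gene scaled to the total UMIs of its class in that library. The assay counts the 3' end of each transcript once, so CPM is not divided by gene length. Nucleus pulposus cells, gated by Krt8, Krt18, Krt19 and T, were split at 1% of UMIs from mitochondrial genes (mt). At or above 1% there were 76, 114 and 8 cells in libraries 1, 2 and 3, and below it 425, 33 and 17. The 8 cells of library 3 are under the minimum of 10 cells for a sum and stayed out of the fit, so the nucleus pulposus at 1% mt or more rests on libraries 1 and 2 and its comparisons rest on 2 pools. Chondrocytes numbered 1060, 385 and 102, other connective tissue cells 113, 263 and 782 and B lineage cells, the largest blood class in libraries 2 and 3, 936, 2573 and 3275. Although the cells were sorted for tdTomato, blood classes outnumbered the disc cells in every library. Median UMIs per cell were 7652 and 10545 in nucleus pulposus cells at 1% mt or more, 2549, 3450.0 and 1250.0 below 1%, and 8788, 11610.0 and 12220.5 in chondrocytes. The libraries held 64695292, 145925353 and 137188648 UMIs, and pairs of libraries shared between 20 and 34 cell barcodes. Markers of the nucleus pulposus summed to 4919.8 and 7719.8 CPM in the class at 1% mt or more, 7190.4, 8967 and 10395 CPM below it and 21.8, 3.30 and 0 CPM in chondrocytes. The chondrocyte class was mixed: the 10 markers of other connective tissue, among them the collagen genes Col1a1, Col1a2, Col3a1 and Col5a2, summed to 70948, 105774 and 201084 CPM in it, against 77778, 204184 and 229802 CPM in other connective tissue and 1518 and 2056 CPM in nucleus pulposus cells at 1% mt or more.

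The 16 enzyme genes from hexokinase to lactate dehydrogenase, Ldha and Ldhb included, together took a larger share of UMIs in nucleus pulposus cells than in any other class with sums in the fit. Their share was 1.79, 2.03 and 1.96% below 1% mt and 1.31 and 1.23% at 1% mt or more, and 1.87% in the 8 cells left out. Neutrophil promyelocytes, which divide and fill the first granules, came next with 0.620, 0.714 and 0.879%, and chondrocytes had 0.637, 0.619 and 0.414%. These ranges of promyelocytes and chondrocytes overlap, and neither reaches the nucleus pulposus. Other connective tissue had 0.205, 0.149 and 0.166% and erythroid cells had the lowest share, 0.105, 0.129 and 0.182%. Every blood class was highest in library 3, while chondrocytes were lowest there. No test was made on this sum.

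**Figure D1:**
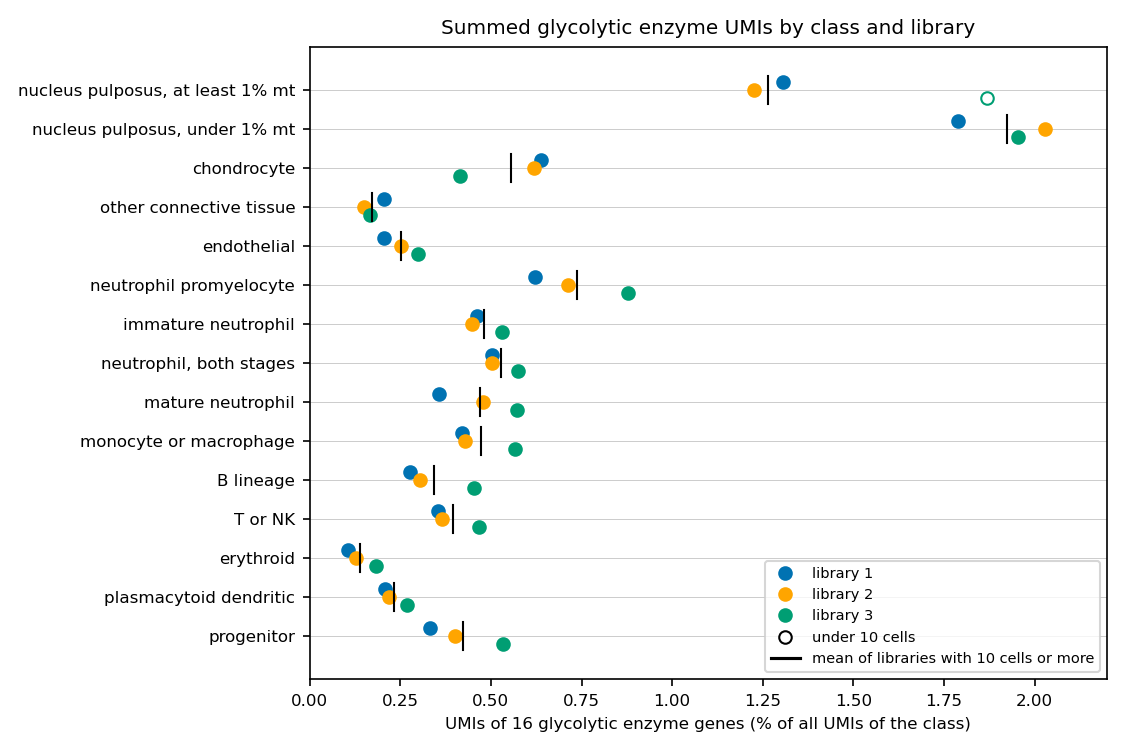
Share of all UMIs of a class that came from 16 glycolytic enzyme genes (x axis, %), with 1 point per library and a line at the mean of libraries with at least 10 cells. The nucleus pulposus points lie between 1.23% and 2.03%, and all points of the other classes lie below 0.88%.

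Single members did not all share that order. With the 15 classes ranked by their mean level, 13 of the 34 members were highest in nucleus pulposus cells below 1% mt, among them the enzymes from aldolase to lactate dehydrogenase A, and 4 in those at 1% mt or more (Slc2a1, Pdk1, Vegfa and Ankrd37). Chondrocytes held the highest level of 5 (Pfkp, Hif1a, Ddit4, P4ha1 and P4ha2). Endothelial cells (Pfkfb3, Epas1 and Ndrg1), erythroid cells (Hk1, Pfkm and Slc16a1) and mature neutrophils (Slc2a3, Slc16a3 and Pfkfb4) held 3 each. Hk2 was highest in monocytes or macrophages, Gpi1 in promyelocytes and Ldhb in plasmacytoid dendritic cells. In 21 of the 34 the libraries of the first class did not overlap those of the second, and in the other 13 they did, as for Vegfa, Hif1a and Pkm.

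**Figure D2:**
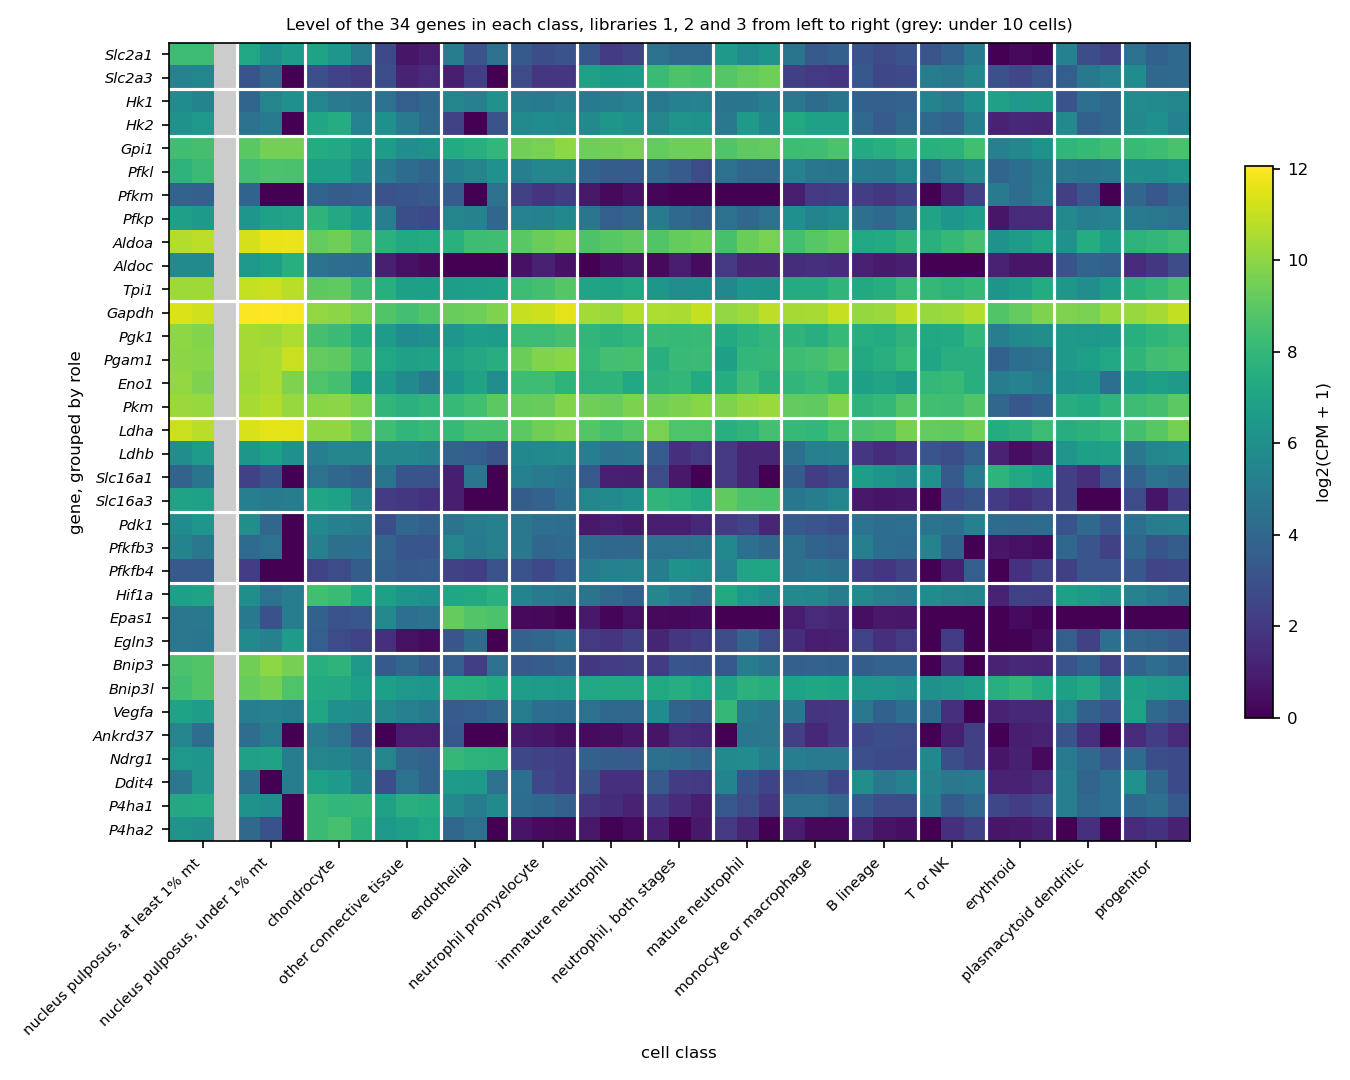
Level of each of the 34 genes (rows, grouped by role) in 15 cell classes (columns, libraries 1, 2 and 3 from left to right), as log2(CPM + 1) in colour. Aldoa and Ldha are brightest in both nucleus pulposus classes, while rows such as Slc2a3, Slc16a3, Hk1 and Epas1 peak elsewhere.

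Nucleus pulposus cells at 1% mt or more were compared with chondrocytes, with other connective tissue and with the mean of 7 blood lineages, each lineage weighted equally. The test was edgeR's quasi-likelihood test on the sums with the library as a block, and a gene is called at a Benjamini-Hochberg adjusted p under 0.05 over all 13732 genes tested. All 34 members passed the filter on low counts, which a gene can pass through 1 class alone. Against chondrocytes 16 members were called higher, where 9.66% of all genes tested were, and 4 were called lower, where 14% of all genes were. The median log2 fold change of the members was 0.72, against -0.23 for all genes. Against other connective tissue 23 were higher (14% of all genes) and 1 lower (18.6% of all genes), with a median of 2.24 against -0.23. Against the blood mean 32 were higher (34.7% of all genes) and 0 lower (17.2% of all genes), with a median of 2.78 against 0.20, a median that was the same with the 3 genes that have a blood class at 0 (Pfkm, Aldoc and Epas1) set to their bounds. These comparisons share the nucleus pulposus sums. The blood mean is one of log levels, so lineages near 0 pull it down. A member called higher than this mean can thus stand below a single blood class. Slc2a3 did so below mature neutrophils and Hk1 below erythroid cells. Without library 2, which leaves 1 nucleus pulposus sum that is assumed to vary like the others, 8 members were called higher and 2 lower than in chondrocytes, and 28 higher than in blood.

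**Figure D3:**
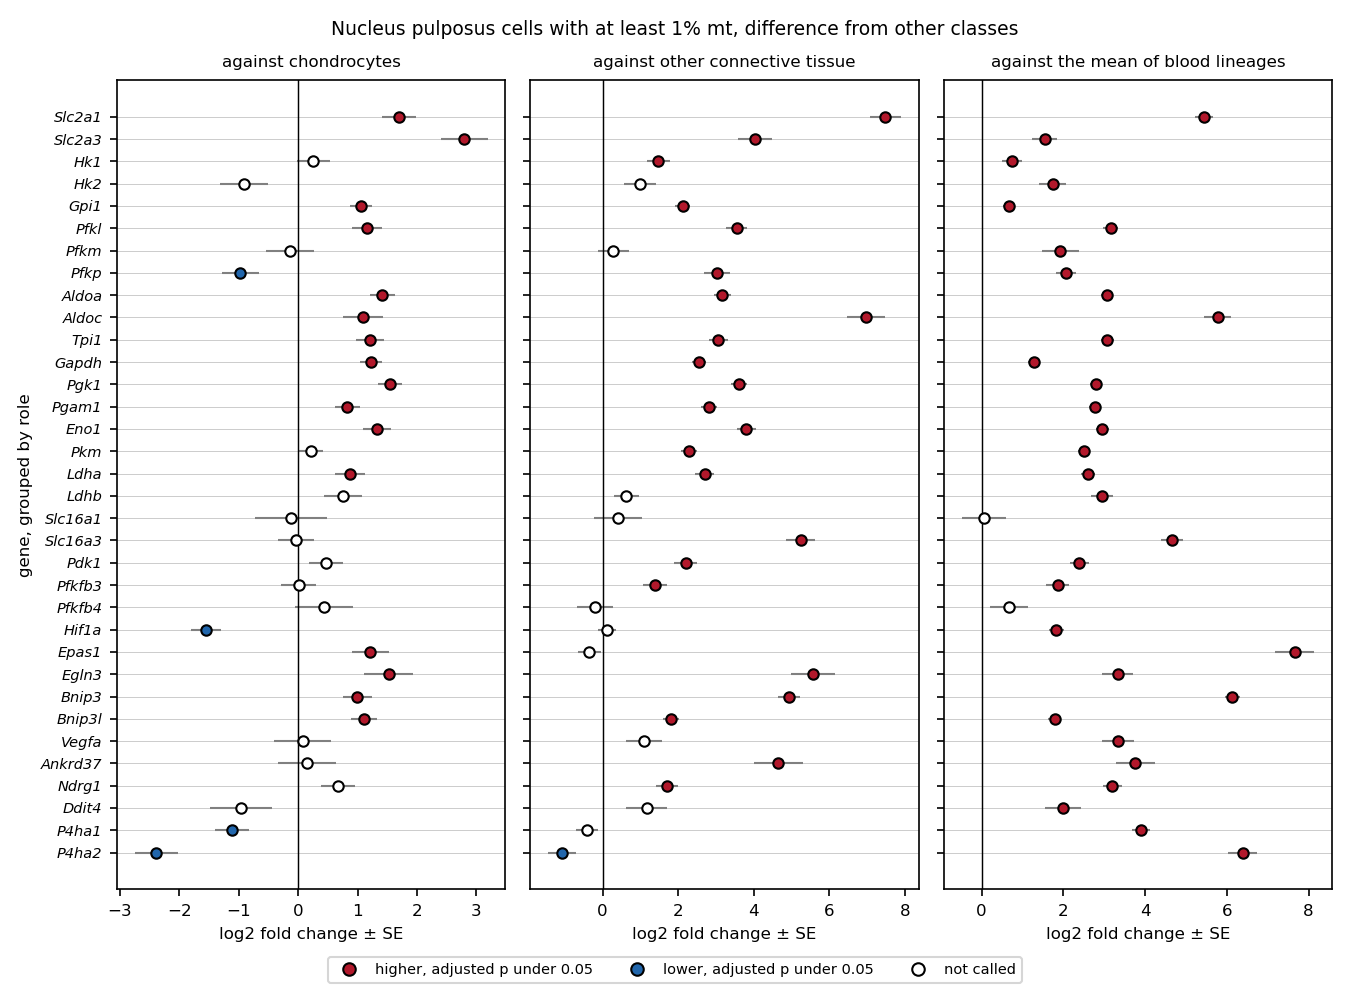
Log2 fold change ± SE of each of the 34 genes in nucleus pulposus cells at 1% mt or more against chondrocytes (left), other connective tissue (middle) and the mean of 7 blood lineages (right), filled red where called higher and blue where called lower. Of the members 16, 23 and 32 are called higher, and P4ha2 is called lower in the first 2 panels.

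Both glucose transporters were higher in the nucleus pulposus at 1% mt or more than in chondrocytes and other connective tissue. Below 1% mt the range of Slc2a1 overlapped that of chondrocytes. Slc2a1 (chr4:119108711-119137983, + strand, GENCODE vM21 on mm10), which encodes GLUT1, stood at 306 and 312 CPM in libraries 1 and 2, 147, 65.9 and 97.5 CPM below 1% mt, 127, 79.9 and 32.2 CPM in chondrocytes and 5.42, 0.654 and 1.04 CPM in other connective tissue. The nucleus pulposus values at 1% mt or more lie above those of all other classes, and the 8 cells of library 3 had 345 CPM. Its log2 fold change was 1.70 ± 0.29 (SE; adjusted p = 1.69e-05) against chondrocytes and 7.48 ± 0.41 (adjusted p = 1.4e-16) against other connective tissue. Slc2a3 (chr6:122727809-122801640, - strand) encodes GLUT3, a carrier with high affinity for glucose. Slc2a3 stood at 39.8 and 45.6 CPM in the nucleus pulposus at 1% mt or more, 6.83, 4.46 and 3.16 CPM in chondrocytes and 469.5, 582 and 667 CPM in mature neutrophils, its highest class. The difference from chondrocytes was 2.79 ± 0.39 (adjusted p = 7.71e-07). Mature neutrophil markers, 8 genes, summed to 6.63 and 12.0 CPM in these nucleus pulposus cells, 10.3, 7.57 and 1.89 CPM in chondrocytes and 12848, 8510.2 and 7526 CPM in mature neutrophils, and their part in the Slc2a3 difference was not tested. Of the 8, 3 and 8 were detected in nucleus pulposus libraries 1 and 2.

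The 2 hexokinases, which trap glucose in the cell as glucose 6-phosphate, did not pass the test against chondrocytes. Hk1 stood at 57.1 and 42.4 CPM in nucleus pulposus cells at 1% mt or more and 46.0, 30.5 and 25.9 CPM in chondrocytes, a difference of 0.26 ± 0.28 (adjusted p = 0.847). Hk2, the inducible form, stood at 70.3 and 85.6 CPM and 135, 175 and 39.8 CPM, a difference of -0.91 ± 0.40 (adjusted p = 0.101). Chondrocytes of library 3 were low in Hk2 and the groups overlap. Against other connective tissue Hk1 was called higher, by 1.47 ± 0.30 (adjusted p = 0.000168), and Hk2, with 0.99 ± 0.42 (adjusted p = 0.065), was not. Erythroid cells, whose hexokinase is known to be mainly Hk1, had 119.6, 85.0 and 94.7 CPM of Hk1 and 1.29, 1.65 and 1.46 CPM of Hk2. Monocytes or macrophages had 158, 119 and 119 CPM of Hk2, a range that overlaps that of chondrocytes.

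Of the 7 further genes of upper glycolysis, 5 were called higher and 1 lower than in chondrocytes. Gpi1, which turns glucose 6-phosphate into fructose 6-phosphate, stood at 325 and 366 CPM in the nucleus pulposus at 1% mt or more and 168, 152 and 107 CPM in chondrocytes (1.06 ± 0.19, adjusted p = 2.98e-05). It was higher still in promyelocytes, at 729.7, 794 and 1021 CPM, and the difference of the nucleus pulposus from the blood mean, 0.67 ± 0.15 (adjusted p = 0.000193), was the smallest of the 32 called there. The 3 phosphofructokinase genes encode subunits of the enzyme that commits sugar to glycolysis, and they did not move together. Pfkl, the liver type, stood at 222 and 296 CPM in the nucleus pulposus and 113, 111 and 63.2 CPM in chondrocytes (1.15 ± 0.25, adjusted p = 0.000602). Pfkp, the platelet type, stood at 110.1 and 93.5 CPM in the nucleus pulposus and 229.8, 157 and 102 CPM in chondrocytes (-0.98 ± 0.31, adjusted p = 0.0189). Its values in library 3 of the chondrocytes lie within the nucleus pulposus range, and the call of Pfkp was lost without library 1 (-0.72, adjusted p = 0.074) or library 2 (-1.06, adjusted p = 0.238) and in the fit without the library block (-0.96, adjusted p = 0.105). The Pfkl call was lost without library 2 (1.02, adjusted p = 0.172). Pfkm, the muscle type, was low in both, at 13.3 and 12.0 CPM and 14.0, 10.7 and 11.4 CPM, with no call (-0.13 ± 0.40, adjusted p = 0.868).

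The aldolases cut fructose 1,6-bisphosphate into triose phosphates. Aldoa was among the most abundant members, at 1615 and 1845 CPM in the nucleus pulposus at 1% mt or more, 575, 699 and 432 CPM in chondrocytes and 207, 158 and 172 CPM in other connective tissue. Aldoa exceeded chondrocytes by 1.41 ± 0.21 (adjusted p = 2.04e-06), and the ranges do not overlap. Aldoc, better known from brain, stood at 54.4 and 51.2 CPM in the nucleus pulposus at 1% mt or more, 84.3, 109.8 and 195 CPM below 1%, 23.5, 18.8 and 18.3 CPM in chondrocytes and 1.08, 0.436 and 0.222 CPM in other connective tissue. Aldoc exceeded chondrocytes by 1.09 ± 0.33 (adjusted p = 0.0137), a call lost without library 2 (1.17, adjusted p = 0.227). The levels in other connective tissue rest on 1, 2 and 3 UMIs, so no fold is given for them. In blood classes Aldoc was highest in plasmacytoid dendritic cells, at 7.64, 14.3 and 12.0 CPM, and in T or NK cells it was 0 in every library, which allows up to 24.4, 3.22 and 11.7 CPM. Tpi1, which interconverts the triose phosphates, stood at 1242 and 1280.1 CPM in the nucleus pulposus and 522, 548 and 329.7 CPM in chondrocytes (1.21 ± 0.24, adjusted p = 0.000156).

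In lower glycolysis 4 of 5 genes were called higher than in chondrocytes, and all 5 were called higher than in other connective tissue and in blood. Pgk1 (chrX:106187100-106203699, + strand), which makes the first ATP of the pathway, stood at 1044 and 911 CPM in the nucleus pulposus and 365, 299.7 and 184 CPM in chondrocytes, and differed by 1.55 ± 0.20 (adjusted p = 1e-07). Gapdh, the dehydrogenase before it, stood at 2749 and 2349.9 CPM and 1104, 1001 and 808 CPM (1.22 ± 0.19, adjusted p = 3.26e-06). Gapdh, often used as a reference gene, thus differed between these classes, and in promyelocytes it reached 2068, 2274 and 3032 CPM. Pgam1, a mutase, stood at 995 and 969 CPM and 569, 541 and 318 CPM (0.83 ± 0.20, adjusted p = 0.00231), and its call was lost without library 2 (1.04, adjusted p = 0.0678), without the library block (0.77, adjusted p = 0.0617) and in the fit of the compared classes alone (0.63, adjusted p = 0.0551). Pkm, the last enzyme, stood at 1233 and 1174 CPM and 971, 994 and 802 CPM and did not pass the test (0.21 ± 0.22, adjusted p = 0.541). Against other connective tissue, at 243, 209 and 242 CPM, Pkm was higher by 2.28 ± 0.22 (adjusted p = 1.39e-10).

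Eno1, the enolase of most tissues, stood at 1089 and 858 CPM in the nucleus pulposus, 428, 347 and 123 CPM in chondrocytes and 92.1, 52.1 and 30.0 CPM in other connective tissue. Its difference from chondrocytes was 1.32 ± 0.24 (adjusted p = 4.56e-05). Library 3 had the lowest ratio of Eno1 to Gapdh in every class: that ratio was 0.387, 0.347 and 0.152 in chondrocytes and 0.103, 0.105 and 0.0536 in B lineage cells of libraries 1, 2 and 3. The matrix of library 1 was written by another software version than those of libraries 2 and 3. Each library is also its own pool and batch, and the cause of the low ratio in library 3 was not tested. Gapdh, Pgk1, Pkm, Ldha and Eno1 have near-identical copies in the genome among which reads could be split, so their levels are less certain than those of single-copy members.

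The lactate genes divided. Ldha (chr7:46841475-46855627, + strand), the subunit that favours lactate, stood at 2184 and 1821 CPM in the nucleus pulposus at 1% mt or more, 1075, 1062 and 730.1 CPM in chondrocytes and 326, 242 and 291 CPM in other connective tissue. It was higher than in chondrocytes by 0.87 ± 0.25 (adjusted p = 0.00882), a call that was lost without library 2 (1.13, adjusted p = 0.0833) and in the fit without the library block (0.79, adjusted p = 0.0646). Ldhb, the subunit of heart muscle, stood at 61.0 and 96.7 CPM in the nucleus pulposus and 34.4, 44.4 and 43.6 CPM in chondrocytes (0.76 ± 0.33, adjusted p = 0.0904). Slc16a3 encodes MCT4, a carrier known for lactate export. It stood at 123 and 119.9 CPM in the nucleus pulposus, 136, 119 and 53.1 CPM in chondrocytes and 3.25, 2.84 and 2.37 CPM in other connective tissue. The difference between nucleus pulposus and chondrocytes did not pass the test (-0.03 ± 0.31, adjusted p = 0.976), and both stood well above other connective tissue, where the nucleus pulposus was higher by 5.24 ± 0.39 (adjusted p = 2.6e-13). Slc16a1, which encodes the carrier MCT1, stood at 13.3 and 24.0 CPM in the nucleus pulposus and had its highest level in erythroid cells, at 229, 153 and 111 CPM.

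None of the 3 regulators was called between nucleus pulposus and chondrocytes. Pdk1 encodes a kinase that inhibits pyruvate dehydrogenase. It stood at 58.4 and 80.8 CPM in the nucleus pulposus, 53.0, 36.7 and 33.5 CPM in chondrocytes and 6.50, 14.6 and 12.0 CPM in other connective tissue. It was higher than in other connective tissue by 2.20 ± 0.31 (adjusted p = 5.09e-07). Pfkfb3 and Pfkfb4 set the level of fructose 2,6-bisphosphate, the activator of phosphofructokinase. Pfkfb3 stood at 42.5 and 26.4 CPM in the nucleus pulposus and 37.4, 21.0 and 20.2 CPM in chondrocytes (0.01 ± 0.30, adjusted p = 1). Pfkfb4 was low in the disc, at 9.29 and 9.59 CPM in the nucleus pulposus, and reached 39.6, 129.7 and 141 CPM in mature neutrophils.

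The 2 HIF alpha genes differed from chondrocytes in opposite directions. Hif1a (chr12:73901375-73947530, + strand) stood at 111 and 125 CPM in the nucleus pulposus at 1% mt or more and 338, 298 and 167 CPM in chondrocytes, a difference of -1.56 ± 0.25 (adjusted p = 8.81e-06). From other connective tissue, at 115, 75.3 and 66.5 CPM, the difference did not pass the test (0.12 ± 0.25, adjusted p = 0.769). Epas1 (chr17:86753700-86833410, + strand), which encodes HIF-2 alpha, stood at 26.5 and 27.2 CPM in the nucleus pulposus and 12.3, 7.57 and 8.84 CPM in chondrocytes, and was higher by 1.21 ± 0.31 (adjusted p = 0.00447). Endothelial cells held 599, 451 and 405 CPM of Epas1. The 6 endothelial markers summed to 25.2 and 14.4 CPM in the nucleus pulposus, 7.91, 3.49 and 1.89 CPM in chondrocytes and 6302, 7329 and 8512 CPM in endothelial cells, and their part in the Epas1 difference was not tested. Of the 6, 1 and 3 were detected in nucleus pulposus libraries 1 and 2, and in the 8 cells of library 3 both they and Epas1 were at 0. In blood Epas1 was at most 1.77 CPM and was 0 in every library of mature neutrophils, where a count of 0 allows up to 9.15, 4.32 and 4.36 CPM, and likewise in T or NK cells, plasmacytoid dendritic cells and progenitors. Against the blood mean it was at least 30.6-fold higher, with these classes set to 3 UMIs over the class. Egln3 encodes PHD3, a prolyl hydroxylase that HIF itself induces. It stood at 26.5 and 25.6 CPM in the nucleus pulposus, 54.3, 36.6 and 97.5 CPM below 1% mt, 11.1, 5.82 and 4.42 CPM in chondrocytes and 2.17, 0.436 and 0.296 CPM in other connective tissue. It was higher than in chondrocytes by 1.53 ± 0.41 (adjusted p = 0.00519), but the call was lost without library 2 (1.34, adjusted p = 0.232), as was that of Epas1 (0.83, adjusted p = 0.31).

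Among the 8 hypoxia targets the mitophagy receptors and the collagen hydroxylases went opposite ways between nucleus pulposus and chondrocytes. Bnip3 (chr7:138890836-138909519, - strand), which tags mitochondria for removal, stood at 387 and 449 CPM in the nucleus pulposus at 1% mt or more, 709, 1039 and 779.7 CPM below 1%, 193, 227 and 92.2 CPM in chondrocytes and 9.75, 14.6 and 9.69 CPM in other connective tissue. Bnip3 was higher than in chondrocytes by 1.00 ± 0.25 (adjusted p = 0.00253) and than in other connective tissue by 4.92 ± 0.29 (adjusted p = 7.86e-16). Its relative Bnip3l, which clears mitochondria from maturing red cells, stood at 337 and 447 CPM, 167, 152 and 112 CPM in chondrocytes and 189.6, 243 and 170.2 CPM in erythroid cells. Against chondrocytes Bnip3l was higher by 1.10 ± 0.21 (adjusted p = 0.000132), with values above all of theirs. Both calls were lost without library 2, that of Bnip3 with 1.22, adjusted p = 0.0616 and that of Bnip3l with 0.91, adjusted p = 0.115.

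P4ha1 and P4ha2 encode the catalytic subunits of collagen prolyl 4-hydroxylase. P4ha1 stood at 157 and 166 CPM in the nucleus pulposus at 1% mt or more and 294, 253 and 266 CPM in chondrocytes (-1.11 ± 0.29, adjusted p = 0.00399), and its call was lost without library 2 (-1.35, adjusted p = 0.0896) and without the library block (-1.02, adjusted p = 0.0509). P4ha2 stood at 75.6 and 66.4 CPM in the nucleus pulposus, 299, 380.0 and 218 CPM in chondrocytes and 91.0, 113 and 147 CPM in other connective tissue. It was lower than in chondrocytes, with a difference of -2.39 ± 0.36 (adjusted p = 2.76e-06) and no overlap. It was also the 1 member called lower than in other connective tissue (-1.08 ± 0.36, adjusted p = 0.0199), a call that was lost without library 2 (-1.16, adjusted p = 0.21) or library 3 (-0.66, adjusted p = 0.262). Markers of connective tissue moved with these differences: those given above were lower in the nucleus pulposus than in either class, with 8 and 8 of the 10 detected, and their part in the result was not tested.

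Vegfa, the growth factor for blood vessels, stood at 127 and 109 CPM in the nucleus pulposus and 140.3, 66.0 and 60.0 CPM in chondrocytes, overlapping ranges without a call (0.08 ± 0.48, adjusted p = 0.952). Library 1 was high in Vegfa in many classes, for example 262, 33.1 and 26.2 CPM in mature neutrophils and 123, 17.1 and 10.7 CPM in progenitors. Ankrd37, a small protein known as a HIF target, stood at 43.8 and 19.2 CPM in the nucleus pulposus and at most 0.962 CPM in other connective tissue (4.65 ± 0.65, adjusted p = 5.32e-07). Ndrg1, a stress protein, stood at 86.2 and 79.2 CPM in the nucleus pulposus and 265, 226 and 217 CPM in endothelial cells, its highest class. Ddit4, which restrains the growth kinase mTOR, stood at 26.5 and 76.8 CPM in the nucleus pulposus and 119.6, 92.2 and 42.9 CPM in chondrocytes (-0.96 ± 0.52, adjusted p = 0.187). The nucleus pulposus libraries were unlike each other in Ddit4 and overlapped chondrocytes.

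In single cells, thinned to 1000 UMIs each so that depth is the same, Bnip3 was found in 42.7% and 33.3% of nucleus pulposus cells at 1% mt or more and in 46.6%, 60.6% and 60.0% of those below 1%. The share was 20.8%, 22.9% and 11.8% in chondrocytes, 0.885%, 1.15% and 1.54% in other connective tissue and 1.41%, 1.45% and 1.48% in B lineage cells, a class taken as background. Cells with under 1000 UMIs were left out of these shares, at most 26 in any class and library named here. Without thinning the shares were 89.5% and 93.0% at 1% mt or more and 4.81%, 8.12% and 7.45% in B lineage cells, whose median UMIs were 2739.5, 3482 and 2655. Slc2a1 was found in 13.3% and 24.6% of thinned nucleus pulposus cells at 1% mt or more, 14.7%, 8.31% and 1.96% of chondrocytes and 1.30%, 0.707% and 0.954% of B lineage cells. In library 1 the Slc2a1 share was thus no higher than in chondrocytes at equal depth, though its CPM was, so no order is read from it.

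Classes also differed in which member of a gene family they used, given here as a share of the family's UMIs with the exact 95% binomial interval, which covers counting error only. Slc2a3 made up 6.44% ± 2.16 (SD, n = 3) of the 2 glucose transporters in chondrocytes and 12.1% ± 0.889 (SD, n = 2) in nucleus pulposus cells at 1% mt or more. In immature neutrophils it made up 95.1% ± 1.61 (SD, n = 3) and in mature neutrophils 88.4% ± 3.77 (SD, n = 3). Among phosphofructokinases the nucleus pulposus leaned to Pfkl, with 64.2% (95% interval 58.1% to 70.1%) in library 1 and 73.7% (95% interval 69.6% to 77.5%) in library 2. Chondrocytes had 31.7%, 39.9% and 35.8% Pfkl, and none of these values reaches the nucleus pulposus intervals. Ldhb was 2.72% and 5.04% of lactate dehydrogenase in the nucleus pulposus, 3.10%, 4.02% and 5.63% in chondrocytes and 12.5%, 16.5% and 12.5% in other connective tissue. In plasmacytoid dendritic cells it was 32.0% ± 2.16 (SD, n = 3). Of the lactate carriers Slc16a3 was 85.2% ± 3.37 (SD, n = 3) in chondrocytes, 86.8% ± 4.92 (SD, n = 2) in the nucleus pulposus and 20.5% ± 7.93 (SD, n = 3) in other connective tissue. Epas1 was 18.6% ± 0.945 (SD, n = 2) of the HIF alpha UMIs in the nucleus pulposus, 3.68% ± 1.29 (SD, n = 3) in chondrocytes and 73.9% ± 7.21 (SD, n = 3) in endothelial cells.

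**Figure D4:**
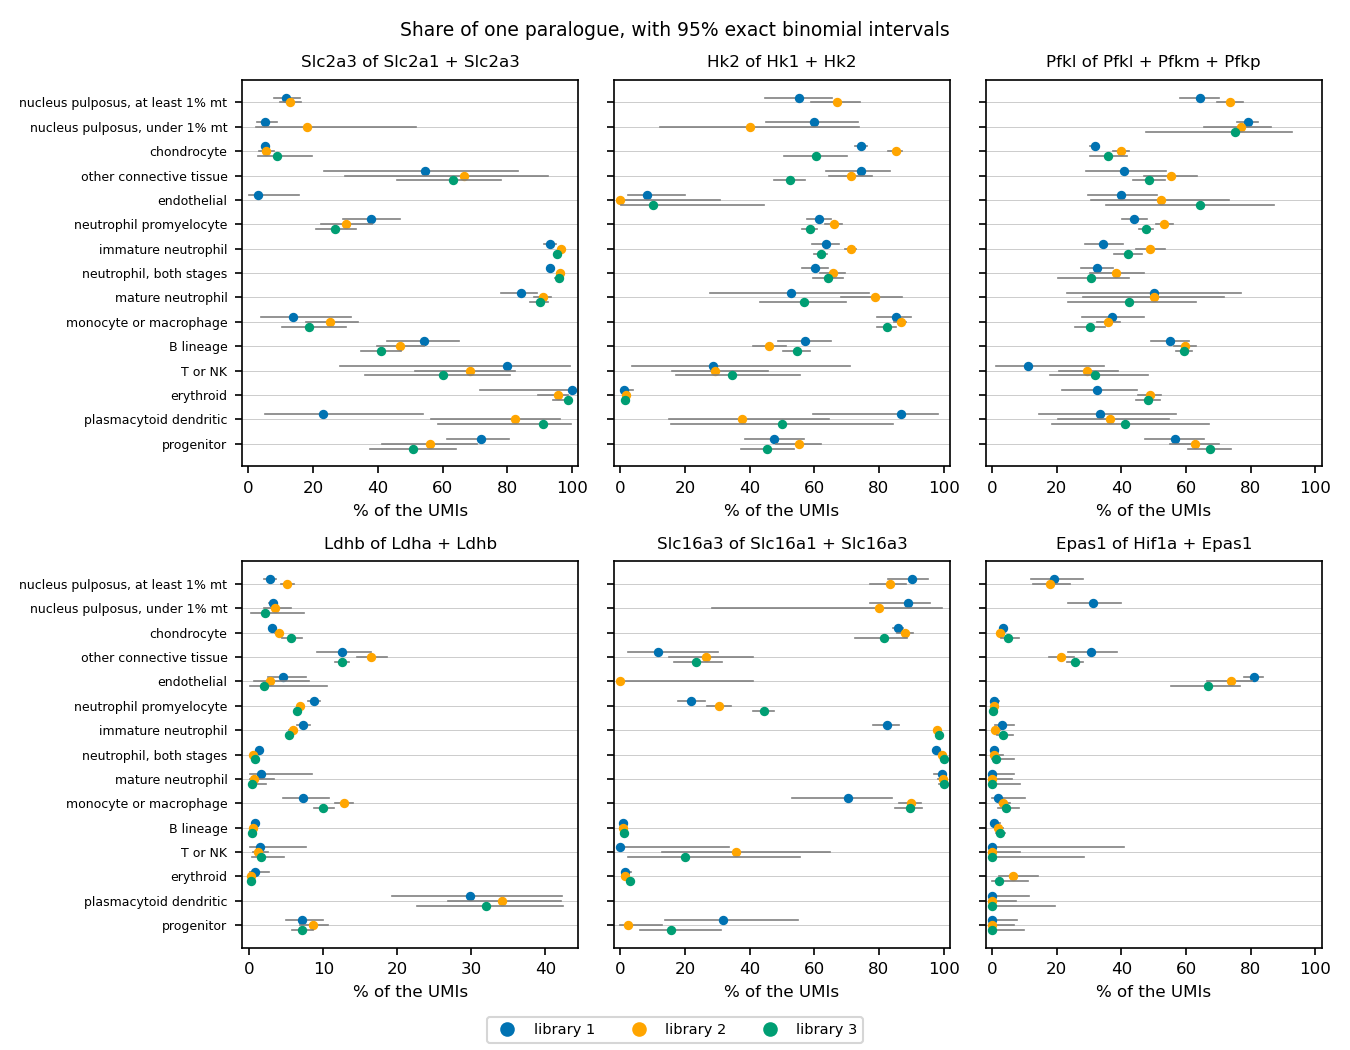
Share of 1 paralogue among the UMIs of its family (x axis, %) in each cell class, 1 point per library with at least 5 UMIs of the family, with exact 95% binomial intervals. Immature, both-stage and mature neutrophils lie near the Slc2a3 and Slc16a3 ends, promyelocytes do not (means of 31.5% and 32.2%), erythroid cells use almost only Hk1, and the 2 nucleus pulposus classes have the highest mean Pfkl shares, 69.0% and 77.1%.

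Nucleus pulposus cells below 1% mt were then compared with those at 1% mt or more. The median cell had 0.0474%, 0.0249% and 0.0483% of its UMIs from mitochondrial genes in the first class, and 3.04% and 3.22% in libraries 1 and 2 of the second. Below it 6 members were called higher, where 1.83% of all genes tested were, and 9 were called lower, where 10.7% of all genes were. The median log2 fold change was -0.19, against -0.40 for all genes. Library 3 has no sum of the second class in the fit. The counts changed when a library was left out: without library 1 there were 2 higher and 3 lower, and without library 2 there were 0 of either, by edgeR, with 1 sum of the second class left. With TMM factors from all genes the counts were 2 and 4, and without the library block they were 1 and 4.

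The members called higher below 1% mt were abundant enzymes and the mitophagy receptors. Gpi1 stood at 506, 739 and 747 CPM below 1% mt and 325 and 366 CPM at 1% mt or more (0.86 ± 0.20, adjusted p = 0.00328). Aldoa stood at 2536, 3279 and 3411 CPM below and 1615 and 1845 CPM above, and differed by 0.74 ± 0.22 (adjusted p = 0.0217). In the 8 cells of library 3 at 1% mt or more, Aldoa stood at 2932 CPM, within the range of the class below 1%, and Gpi1 at 813 CPM, above it. Gapdh, at 4075, 4289 and 3963 CPM, differed by 0.62 ± 0.19 (adjusted p = 0.0303), and Pgam1, at 1395, 1471 and 2177 CPM, by 0.65 ± 0.22 (adjusted p = 0.0404). Bnip3 differed by 1.07 ± 0.27 (adjusted p = 0.00651), and its values below 1% lie above both of the other class. Bnip3l, at 613, 739 and 422 CPM, differed by 0.76 ± 0.23 (adjusted p = 0.0248), but its value in library 3 lies within the range of the other class. The calls of Aldoa, Gapdh, Pgam1 and Bnip3l were lost without library 1 and also without the library block, and that of Pgam1 also without library 3 (0.59, adjusted p = 0.107). Bnip3 lost its call without the library block too (1.05, adjusted p = 0.0846).

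The members called lower below 1% mt were the glucose transporters, the hexokinases, the carrier Slc16a3, Hif1a, Vegfa and the collagen hydroxylases. Slc2a1 differed by -1.51 ± 0.35 (adjusted p = 0.0033) and Slc2a3, at 7.86, 14.6 and 0 CPM, by -2.45 ± 0.58 (adjusted p = 0.00391). The Slc2a3 value of 0 in library 3 allows up to 97.5 CPM. Hk1 differed by -1.26 ± 0.41 (adjusted p = 0.0394) and Hk2 by -1.71 ± 0.58 (adjusted p = 0.0468). Without library 1, which leaves 1 sum at 1% mt or more, the sign of Hk1 turned (0.14). The Hk1 call was also lost without library 3 (-1.34, adjusted p = 0.0548) and without the block (-1.03, adjusted p = 0.168). The Hk2 call was lost without library 1 (-1.77, adjusted p = 0.572), 2 (-1.69, adjusted p = 0.261) or 3 (-1.67, adjusted p = 0.0566) and without the block (-1.77, adjusted p = 0.078). Slc16a3 stood at 34.3, 29.3 and 32.5 CPM below 1% mt (-1.84 ± 0.42, adjusted p = 0.00279), well under the class at 1% mt or more. In the library with the fewest, both lactate carriers together had 1 UMI below 1% mt. Slc16a3 was not called without library 1 (-2.01) or library 2 (-1.77), fits that each leave 1 sum at 1% mt or more. Hif1a stood at 62.9, 22.0 and 32.5 CPM (-1.19 ± 0.32, adjusted p = 0.00963), Vegfa at 35.0, 36.6 and 32.5 CPM (-2.18 ± 0.70, adjusted p = 0.0343) and P4ha2 at 17.1, 7.32 and 0 CPM (-2.16 ± 0.53, adjusted p = 0.00509), from 24, 1 and 0 UMIs. The Vegfa call was likewise lost without library 1 (-1.58, adjusted p = 0.117), 2 (-1.71, adjusted p = 0.382) or 3 (-2.16, adjusted p = 0.0706), without the block (-1.67, adjusted p = 0.359) and with DESeq2 (-1.80, adjusted p = 0.103). P4ha1 differed by -1.32 ± 0.36 (adjusted p = 0.0123), a call lost with a minimum of 1000 genes per cell (-1.09, adjusted p = 0.0543). The P4ha1 call was also lost with TMM factors from all genes (-1.10, adjusted p = 0.0555). Without library 1, a fit that leaves 1 sum at 1% mt or more, P4ha1 (-1.76), P4ha2 (-3.43) and Slc2a3 (-1.95) were not called. Without the block the calls of Slc2a1 (-1.38, adjusted p = 0.101) and Hif1a (-1.20, adjusted p = 0.0998) were lost too. Enzymes of lower glycolysis such as Pkm, at 1415, 1654 and 1169 CPM (0.22 ± 0.22, adjusted p = 0.58), and Ldha, at 2564, 3052 and 3054 CPM (0.46 ± 0.26, adjusted p = 0.27), did not pass the test.

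Other measures moved with this split, and their part in it was not tested. Ribosomal protein genes took 32.2, 32.4 and 29.2% of UMIs below 1% mt and 19.6 and 18.1% at 1% mt or more. The 9 dissociation response genes summed to 1220.1, 432 and 487 CPM below and 10081 and 6103 CPM above, and the 9 chondrocyte markers to 1219, 805 and 585 CPM below and 8339 and 11121 CPM above, with 9, 6 and 4 of 9 detected below. Immature neutrophil markers summed to 730.0, 359 and 487 CPM below and 345 and 282 CPM above, against 144911, 149291 and 156587 CPM in immature neutrophils. Cells below 1% mt were also common outside the nucleus pulposus, at 89.0%, 78.8% and 82.0% of mature neutrophils, but made up at most 1.89% of chondrocytes. Without mitochondrial genes in the totals the counts were the same, 6 higher and 9 lower. Just inside the split, at 0.5% to 1% mt, 13 cells had a median of 1.48% of their UMIs from the 16 enzymes, and just outside it, at 1% to 2%, 25 cells had 1.73%. In library 1 alone the medians were 1.74% over 11 cells and 1.72% over 14 cells. Cells at 2% to 4% had a median of 1.34% and cells at 4% or more one of 1.01%. In library 2 the median was 1.84% over 29 cells under 0.1% mt and 1.57% over 6 cells at 1% to 2%. These are medians over single cells, and the libraries are unevenly spread over the ranges. Where along the mt scale the share falls was not tested.

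**Figure D5:**
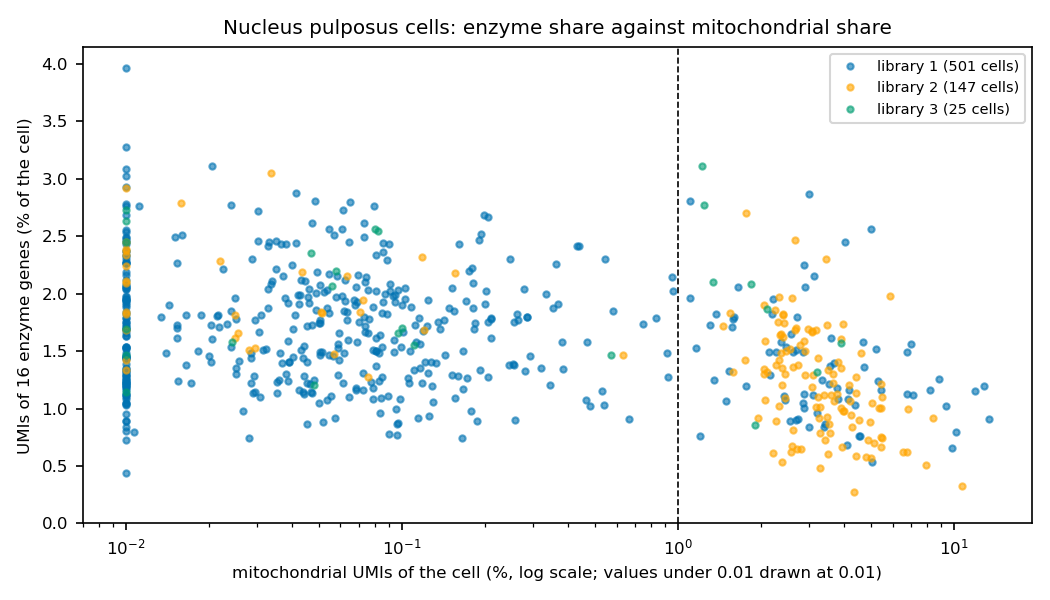
Share of UMIs from the 16 enzyme genes (y axis, %) against the share from mitochondrial genes (x axis, %, log scale, values under 0.01 drawn at 0.01) in each nucleus pulposus cell, coloured by library, with a dashed line at the split of 1%. Cells of library 1 make up most of the left group and cells of library 2 most of the right one.

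Mature neutrophils were compared with immature ones, as 2 stages of a lineage known to rely on glycolysis. Mature cells were called higher in 9 members, where 14.1% of all genes tested were, and lower in 6, where 23.8% of all genes were, with a median log2 fold change of 0.25 (0.28 without Pfkm and Epas1, which were at 0 in all mature libraries) against -0.60 for all genes. The split depends on scaling: with DESeq2's size factors 16 members were higher and 2 lower, while the share of higher genes among all genes called went from 37.2% to 60.0% and the median of all genes from -0.60 to -0.05. Median UMIs per cell were 2036, 2653 and 2455.5 in mature and 14093.5, 13594.5 and 12276.5 in immature cells. The 9 dissociation response genes summed to 10287, 12119 and 12433 CPM in mature and 2677, 2177 and 2723 CPM in immature cells, and their part in the differences was not tested.

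The transporters and the hypoxia targets made up most of the higher calls. Slc2a1 stood at 88.4, 56.2 and 74.2 CPM in mature and 8.48, 3.41 and 4.60 CPM in immature cells (3.52 ± 0.33, adjusted p = 4.86e-11). Slc2a3 stood at 469.5, 582 and 667 CPM and 119.7, 95.1 and 97.5 CPM (2.19 ± 0.28, adjusted p = 3.8e-08), and Slc16a3 at 558, 418 and 387 CPM and 45.1, 53.9 and 65.6 CPM (2.72 ± 0.28, adjusted p = 3.94e-10). The stages do not overlap in any of these carriers. Cells gated as both stages lay between them, with 21.4, 15.9 and 15.4 CPM of Slc2a1 and 239, 209.9 and 165 CPM of Slc16a3. Hif1a stood at 162, 85.0 and 59.6 CPM in mature and 24.1, 16.9 and 12.3 CPM in immature cells, a difference of 2.17 ± 0.24 (adjusted p = 2.19e-09). Pfkfb4 differed by 1.21 ± 0.27 (adjusted p = 0.000333), Bnip3, at 9.15, 33.1 and 23.3 CPM and 2.83, 3.60 and 3.95 CPM, by 2.38 ± 0.36 (adjusted p = 9.41e-07) and Ndrg1 by 1.78 ± 0.29 (adjusted p = 5.16e-06). Ankrd37 stood at 0, 25.9 and 26.2 CPM in mature cells, with the value of library 1 allowing up to 9.15 CPM, and 0.298, 0.369 and 0.642 CPM in immature cells (5.03 ± 0.63, adjusted p = 3.43e-08). The Vegfa call (1.79 ± 0.47, adjusted p = 0.00227) was lost without library 1 (0.61, adjusted p = 0.0922).

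The 6 lower calls were enzymes. Ldhb stood at 3.05, 1.44 and 1.45 CPM in mature neutrophils, 1 UMI in each library, and 36.2, 23.2 and 25.3 CPM in immature ones, and it was called (adjusted p = 1.85e-06), with no fold given for so few UMIs. Tpi1 stood at 48.8, 80.7 and 74.2 CPM and 129, 123 and 146 CPM (-1.25 ± 0.25, adjusted p = 7.34e-05), and the stages do not overlap in Tpi1 or Ldhb. Ldha, at 192, 238 and 350.4 CPM and 459, 373 and 450.1 CPM, differed by -1.03 ± 0.24 (adjusted p = 0.000491). Pgam1 differed by -0.99 ± 0.19 (adjusted p = 7.23e-05), Gpi1 by -0.79 ± 0.17 (adjusted p = 0.000201) and Pgk1 by -0.46 ± 0.19 (adjusted p = 0.0455). With DESeq2's size factors Pgk1 turned to 0.12, adjusted p = 0.729, and Gpi1, Pgam1 and Ldha were no longer called. The Pgk1 call was also lost without library 1 (-0.35, adjusted p = 0.178), 2 (-0.49, adjusted p = 0.256) or 3 (-0.21, adjusted p = 0.566) and without the library block (-0.46, adjusted p = 0.0911). Pkm, at 857, 1076 and 1226 CPM and 699, 631 and 813 CPM, and Gapdh, at 1104, 1258 and 1854 CPM and 1352, 1206 and 1631 CPM, were not called.

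Further genes of these pathways, 38 of glucose metabolism and 31 of the hypoxia response that are no members, moved in both directions. Against chondrocytes, of the 33 and 29 tested, 3 glucose genes were higher and 1 lower in the nucleus pulposus at 1% mt or more, and 2 hypoxia genes were higher and 7 lower. As shares of each list these were 9.09% and 3.03% of the glucose genes and 6.9% and 24.1% of the hypoxia genes, beside 9.66% and 14% of all genes. The highest were Cited2, a HIF target that curbs HIF, at 297 and 429 CPM against 77.7, 74.7 and 17.1 CPM (2.39 ± 0.34, adjusted p = 8.05e-07), and the cytokine Mif, at 2597 and 2023 CPM against 1099.8, 989 and 584 CPM. The lowest were the carbonic anhydrase Car12, at 1.33 and 0 CPM against 38.7, 18.2 and 15.2 CPM, and Pam, an enzyme of peptide amidation, at 18.6 and 12.8 CPM against 271, 274 and 279 CPM. The Car12 values of the nucleus pulposus rest on 1 and 0 UMIs. Against other connective tissue 9 glucose genes were higher and 1 lower, and 12 hypoxia genes were higher and 7 lower, which is 27.3% and 3.03%, then 41.4% and 24.1%, beside 14% and 18.6% of all genes. Car9, a carbonic anhydrase that handles acid in low oxygen, stood at 42.5 and 28.0 CPM in the nucleus pulposus, 25.0, 18.4 and 7.58 CPM in chondrocytes and 0, 0 and 0.148 CPM in other connective tissue. Igfbp3 stood at 44.4, 37.1 and 15.4 CPM in other connective tissue and at 0 in both nucleus pulposus libraries, which allows up to 3.98 and 2.40 CPM. Against the blood mean 17 glucose genes were higher and 6 lower, and 19 hypoxia genes were higher and the others tested were not called. This is 51.5% and 18.2% of the glucose genes and 65.5% of the hypoxia genes, beside 34.7% and 17.2% of all genes. Here too a gene above this mean can stand below a single blood class. Pygl stood at 38.5 and 40.8 CPM in the nucleus pulposus at 1% mt or more and 284, 595 and 651 CPM in mature neutrophils. Slc2a4 stood at 2.65 and 0.800 CPM in the nucleus pulposus, from 2 and 1 UMIs, and at 18.8 to 28.9 CPM in erythroid cells. The adenylate kinase Ak4 stood at 42.5 and 60.0 CPM in the nucleus pulposus and 44.4, 21.7 and 10.7 CPM in chondrocytes. Its highest blood class was the promyelocytes, at 9.59, 7.33 and 7.60 CPM, and it was at most 0.149 CPM in immature neutrophils. Hk3 and Tkt were the lowest in this comparison. Hk3 stood at 1.33 and 0.800 CPM in the nucleus pulposus and 138, 113 and 115 CPM in immature neutrophils, but at only 2.74, 1.43 and 1.31 CPM in B lineage and 0, 0.992 and 0.811 CPM in erythroid cells. Its nucleus pulposus values rest on 1 UMI in each library. Tkt stood at 143 and 118 CPM in the nucleus pulposus and 1068, 955 and 1077 CPM in immature neutrophils.

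Within the nucleus pulposus 2 glucose genes were higher and 3 lower below 1% mt, and 1 hypoxia gene was higher and 4 lower. The shares were 6.06% and 9.09% of the glucose genes and 3.45% and 13.8% of the hypoxia genes, beside 1.83% and 10.7% of all genes. The cytokine gene Mif stood at 4459.5, 4465 and 4288 CPM below 1% mt and 2597 and 2023 CPM at 1% mt or more (0.88 ± 0.30, adjusted p = 0.0481). Between neutrophil stages 4 glucose genes were higher and 11 lower in mature cells, and 6 hypoxia genes were higher and 2 lower. Of the glucose genes 12.1% were higher and 33.3% lower, and of the hypoxia genes 20.7% and 6.9%, beside 14.1% and 23.8% of all genes. Slc2a6, a transporter of the lysosome, stood at 125, 122 and 106 CPM in mature and 0.893, 1.06 and 0.543 CPM in immature cells (6.82 ± 0.44, adjusted p = 4.31e-14). Ero1l, an oxidase of the endoplasmic reticulum, stood at 21.3, 10.1 and 18.9 CPM and 163, 109.7 and 86.4 CPM (-3.12 ± 0.33, adjusted p = 7.93e-10).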

How the data were processed

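Counts of UMIs per gene and cell were deposited by the authors as 3 filtered matrices, 1 per library. Cell Ranger 3.0.2, Seurat 4 and the build mm10 are named in the submitters' processing notes, and the matrices carry the software versions 3.0.1 (library 1) and 6.0.0 (libraries 2 and 3), per the file headers. The 30406 genes listed in all 3 were used, with at least 99.6% of the UMIs of each library. Barcodes under 500 genes or over 15% mitochondrial UMIs were dropped (5732, 10786 and 10364 cells stayed), and Scrublet, run through scanpy 1.11.5 in Python 3.11.15, removed 89, 503 and 388 as doublets.

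A cell entered a class with at least 3 of its markers detected and a minimum share of UMIs from them; cells that met several classes outside set exceptions (8.06%, 10.5% and 9.59%) or none (3.40%, 2.62% and 3.06%) were left out. UMIs were summed per class and library, and 44 sums of at least 10 cells in 15 classes were fitted with edgeR 4.0.16 in R 4.3.3 (quasi-likelihood test, class and library as terms, Benjamini-Hochberg adjusted p under 0.05, 13732 genes after the filter on low counts). TMM factors came from the 2665 genes with a mean of at least 50 CPM, a choice made after seeing the data, since shallow sums were scaled with a bias otherwise. Fold changes are log2 values with SE, in which the fit adds a small prior count. The fit was tested on simulated data.

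Libraries served as a block, because each library is 1 pool of animals split into all its classes. Deviations from class means correlated by 0.40 on average within a library, over 0.1 in 283 of 301 pairs, and by -0.19 between libraries. The deviations of a class cancel out over its libraries, so the value between libraries largely follows from that within them. Alternatives were DESeq2 1.42.0, its size factors, other filters and gates, other class sets and leaving out each library. Described were all 34 members, and of the other genes of the pathways at most the 2 highest and the 2 lowest called in a comparison. Slc2a4 and Pygl were added as examples of genes below a blood class. The members and gene lists were chosen with earlier results of these data known. Positions are those of GENCODE vM21.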

Additional observations from a re-analysis of the deposited data

How the results depend on the processing

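Against chondrocytes 16 members were higher and 4 lower, against other connective tissue 23 and 1, against blood 32 and 0, below 1% mt 6 and 9, and in mature neutrophils 9 and 6. Leaving out each library gave 8 to 18 higher and 2 to 4 lower against chondrocytes, 22 to 27 higher and 0 to 1 lower against other connective tissue, 28 to 32 higher than blood, 0 to 6 higher and 0 to 6 lower below 1% mt, and 8 to 12 higher and 4 to 5 lower in mature neutrophils. The low ends came mostly without library 2, which leaves 1 sum of the nucleus pulposus at 1% mt or more. The fit without the replicate block gave 2 lower than chondrocytes, 0 lower than other connective tissue, and 1 higher and 4 lower below 1% mt; it moved no other count by over 1.5 times. With TMM factors from all genes, an alternative added after seeing the data, 0 were lower than other connective tissue, and 2 were higher and 4 lower below 1% mt. DESeq2 gave 0 lower than other connective tissue, as did the fit of the compared classes alone. With no filter on low counts 3 were higher below 1% mt.

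In mature neutrophils DESeq2 gave 19 higher and 2 lower, its size factors in edgeR 16 and 2, and a minimum of 1000 genes per cell 2 lower. Pgk1 turned from -0.46 to 0.12 with DESeq2, 0.12 with its size factors and 0.016 with 1000 genes, and Vegfa turned to -0.053 with 1000 genes. Hk1 below 1% mt ranged from -1.71 to 0.14 when a library was left out, with the turn of sign without library 1. The cause of these changes was not tested. The share of higher genes among all genes called in mature neutrophils was 37.2%, and 65.9% with DESeq2. TMM factors from all genes moved the median of all genes from -0.23 to -0.10 against chondrocytes and from -0.23 to -0.08 against other connective tissue, and the share of higher genes among those called against other connective tissue from 42.9% to 52.4%. Levels of a few UMIs, as in the 17 cells below 1% mt of library 3, limit what can be read for low genes.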
